A study of Homo sapiens with 12 samples.

Results

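OCI-AML3 cells treated with SA were set directly against OCI-AML3 cells carrying an ALAS1 guide, so that the absolute RNA levels of 2 states in which heme synthesis is targeted could be compared. The comparison rests on 6 of the 12 libraries of the series, chosen by their labels alone: 3 labelled SA and 3 labelled sgALAS1. OCI-AML3 is an established acute myeloid leukaemia cell line. The SA cells received 500 µM SA for 6 days; the labels do not spell the abbreviation out, and the series title places it under inhibition of heme biosynthesis. The sgALAS1 cells carried a doxycycline-inducible guide against ALAS1 and were kept in doxycycline for 7 days. The other 6 libraries are the controls of each arm: 3 of vehicle-treated cells (6 days, no guide named) and 3 of cells with a scrambled guide, sgSCR (7 days of doxycycline). The SA and vehicle cells are not described as carrying a guide or receiving doxycycline, so in the direct comparison the agent, the guide, doxycycline and 1 day of culture cannot be told apart. For that reason the difference between the controls, vehicle minus sgSCR, is printed beside the difference of each gene named and is called the control gap. The labels do not say whether the guide-bearing cells were 1 clone or a pool, how Cas9 was supplied, or whether replicates were separate cultures. The p-values therefore measure the spread between these libraries, which may be technical.

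Heme is built from glycine and succinyl-CoA in a pathway shared between mitochondria and cytosol. ALAS1 catalyses its first, rate-setting step outside the erythroid lineage, and ALAS1 RNA is held down by heme itself. Heme is broken down by HMOX1, and its iron is stored in ferritin. Loss of free heme is also sensed through BACH1, a repressor that heme displaces from antioxidant and heme-handling genes, and through an eIF2α kinase that feeds ATF4. In myeloid cells heme is the prosthetic group of myeloperoxidase and of the NADPH oxidase subunit CYBB.

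Reads from the 3′ ends of polyadenylated RNA were counted per gene, between 4658513 and 7339843 reads per library. Of 57905 identifiers, 13832 were tested. Levels are CPM, read counts normalised to library size with TMM factors. Differences are log2, SA minus sgALAS1 or, for the control gap, vehicle minus sgSCR, given ± their standard error. A gene was called when edgeR's quasi-likelihood test gave a Benjamini-Hochberg adjusted p under 0.05 over all tested genes. The Pearson correlation of log2 CPM across genes was 0.943 to 0.953 between SA and sgALAS1 libraries, 0.959 to 0.96 within SA, 0.96 to 0.969 within sgALAS1 and 0.954 to 0.966 between vehicle and sgSCR libraries. All 7 myeloid markers were present in every group, and the summed level of 10 erythroid and megakaryocyte markers reached at most 1.78 CPM in any library. The 8 lymphoid marker genes summed to 5.05 to 9.75 CPM in SA and 0.154 to 2 CPM in sgALAS1, against 21.2 to 24.1 in vehicle and 13.2 to 14.3 in sgSCR; their part in the results was not tested. In bulk RNA, fewer cells of a type and less RNA per cell cannot be told apart.

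In the direct comparison 545 genes were called, 3.94% of those tested. SA was higher for 313 of them (2.26% of tested genes) and sgALAS1 for 232 (1.68%). The difference exceeded 2-fold for 151 genes that were higher in SA and for 69 that were higher in sgALAS1. Between the controls 198 genes were called (1.43%), 133 higher in vehicle (0.962%) and 65 higher in sgSCR (0.47%). The controls moved the same way for 24 of the 313 genes (7.67%) and for 16 of the 232 (6.9%). They moved the opposite way for 1 gene on each side and were not called for the other 288 and 215. The difference of the differences, (SA minus vehicle) minus (sgALAS1 minus sgSCR), was itself called for 90 of the 313 and 26 of the 232. Over all tested genes it was called for 164 (1.19%), higher for 105 (0.759%) and lower for 59 (0.427%). The plot of the direct difference against the control gap shows both. The direct counts were the most sensitive to 4 libraries: leaving out SA replicate 1 gave 176 higher and 108 lower, SA replicate 3 gave 198 and 110, sgALAS1 replicate 1 gave 187 and 102, and sgALAS1 replicate 2 gave 204 and 110. Those between the controls were 56 higher in vehicle and 28 higher in sgSCR without sgSCR replicate 1, and 65 and 39 without vehicle replicate 2. The count higher in sgSCR was also 117, 43 and 38 without vehicle replicate 1, vehicle replicate 3 and sgSCR replicate 2. The count of genes higher in SA with the controls moving the same way fell to 14 without vehicle replicate 2, and to 15 without sgSCR replicate 2 or sgALAS1 replicate 1. That of genes lower in SA with the controls moving the same way fell to 10 without vehicle replicate 3 or sgSCR replicate 2. The counts beyond the control gap rose to 136 and 43 without vehicle replicate 1, and the lower one fell to between 10 and 16 without vehicle replicate 2, SA replicate 1 or 3, sgSCR replicate 1 or 3, or sgALAS1 replicate 1 or 2.

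**Figure D1:**
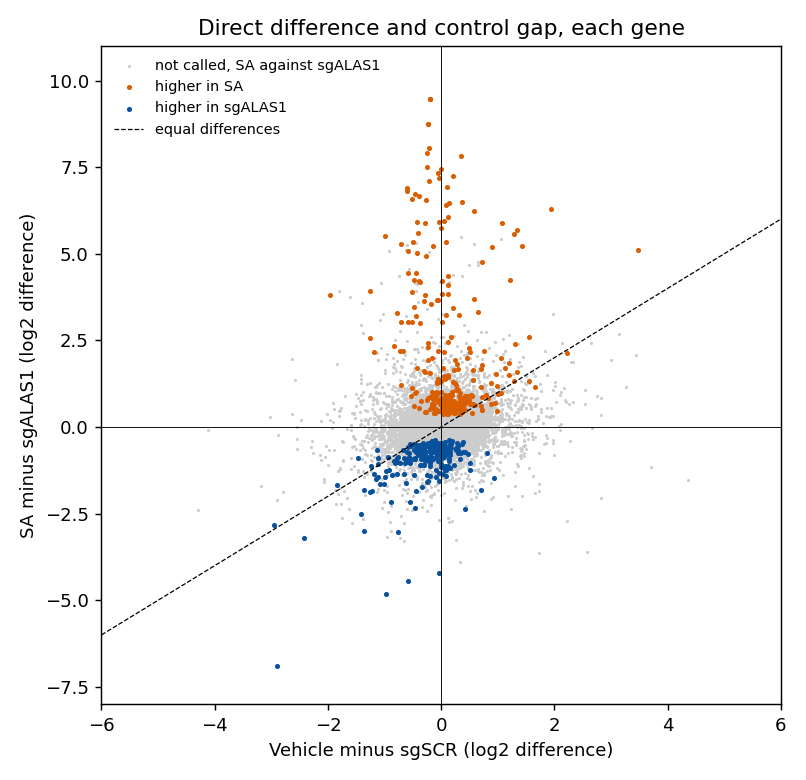
Each point is 1 tested gene (chromosome Y left out), with the control gap (vehicle minus sgSCR, log2) on the x axis and the direct difference (SA minus sgALAS1, log2) on the y axis. Orange points are genes higher in SA and blue points genes higher in sgALAS1 at adjusted p under 0.05, grey points were not called, and the dashed line marks equal differences; most orange points above 2.5 lie near a control gap of 0.

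Similarity was read from the 95% interval of the direct difference rather than from a missed threshold. For 4812 genes (34.8%) the whole interval lay within 1.5-fold in either direction. A further 8474 genes were neither called nor bounded in this way, so for most of the genes these libraries set the 2 states neither apart nor close. Of the 198 genes that differed between the controls, 75 were alike in SA and sgALAS1 by this measure, a share close to the 34.8% of all tested genes.

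Of the 8 heme-synthesis enzymes tested, the first one, ALAS1, was called and was higher in SA, as were 2.26% of all tested genes. ALAS1 (ENSG00000023330) stood at 106, 102 and 111 CPM in the SA libraries and at 26.2, 26.4 and 27.3 in the sgALAS1 libraries. The controls lay between them, at 37.5, 36.4 and 31.1 in vehicle and 38.6, 41.95 and 37.4 in sgSCR. No library of one state came near the other. The direct difference was 1.999 ± 0.14 (adjusted p = 4.9e-11) with a control gap of -0.17 (adjusted p = 0.69). These reads come from the 3′ end of the transcript, and the guide's target site is not given, so an edited transcript can still be counted; the level in sgALAS1 cells is no measure of functional ALAS1.

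The later enzymes of the pathway that are described here were not called. ALAD, which joins 2 molecules of the ALAS1 product, stood at 16.9, 15.9 and 18.3 CPM in SA and 20.1, 28.7 and 25.1 in sgALAS1. Its difference was -0.52 (95% interval -0.94 to -0.11, adjusted p = 0.16, control gap -0.15). PPOX, the penultimate enzyme, differed by -0.72 (interval -1.28 to -0.15, control gap -0.35), and its SA libraries also lay below every sgALAS1 library without passing the test. UROS (0.20, control gap -0.25), UROD (-0.18, control gap 0.002) and FECH (-0.29, control gap -0.04) overlapped between the states. The interval of CPOX, -0.50 to 0.43, lay within 1.5-fold (control gap -0.44).

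HMOX1, the oxygenase that opens the heme ring, was higher in SA. Its level was 21.9, 33.6 and 33.1 CPM in SA and 6.17, 5.09 and 14.6 in sgALAS1, against 2.897, 1.69 and 2.3 in vehicle and 1.59, 1.29 and 1.32 in sgSCR. The 2 heme-targeted states did not overlap, and both lay above both controls. The difference was 1.80 ± 0.31 (adjusted p = 0.00043, control gap 0.73, adjusted p = 0.55). Of the 23 genes of heme breakdown and transport it was the only one called, against 3.94% of all tested genes. BLVRA, the reductase that acts after HMOX1, differed by -0.75 (adjusted p = 0.19, control gap -0.50), and SLC48A1, a heme transporter of the lysosome, by -0.39 (adjusted p = 0.19, control gap -0.42).

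The iron store and the quinone reductase of the antioxidant response reached closely matching levels. FTH1, the ferritin heavy chain, stood at 1012, 1036 and 995 CPM in SA and 989.7, 998 and 1019 in sgALAS1, against 562, 564 and 497 in vehicle and 571, 545 and 527 in sgSCR. The direct difference was 0.017 with an interval of -0.18 to 0.22, and the control gap was -0.018. FTH1 has near-identical processed copies in the genome that can share its reads. FTL, the ferritin light chain, differed by -0.21 (interval -0.42 to 0.0062) beside a control gap of -0.55; the gap was called, except without sgSCR replicate 1 (adjusted p = 0.0536).

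NQO1 reached one level from unequal controls. It stood at 114, 123 and 115 CPM in SA and 109.7, 122 and 132 in sgALAS1, with a direct difference of -0.047 (interval -0.34 to 0.24). Vehicle libraries held 26.8, 17.3 and 28.7 CPM and sgSCR libraries 56.2, 46.5 and 49.3, a control gap of -1.06 ± 0.16 (adjusted p = 0.00017). AKR1C3, an aldo-keto reductase of the same 27-gene NRF2 target list, differed in both comparisons. It was 9.33, 10.9 and 11.7 CPM in SA and 29.6, 28.7 and 44.99 in sgALAS1, a difference of -1.68 ± 0.26 (adjusted p = 0.00011) beside a control gap of -1.83 (adjusted p = 0.0023; not called by limma voom). AKR1C2 differed by -2.83 (adjusted p = 0.005, control gap -2.96, not called). The AKR1C genes are close paralogs, so the split of reads between them is uncertain. These and HMOX1 were the 3 calls in that list, 1 higher in SA and 2 lower, against 2.26% and 1.68% of all tested genes. The median difference of the list was -0.0443 against -0.000764 over all tested genes.

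**Figure D2:**
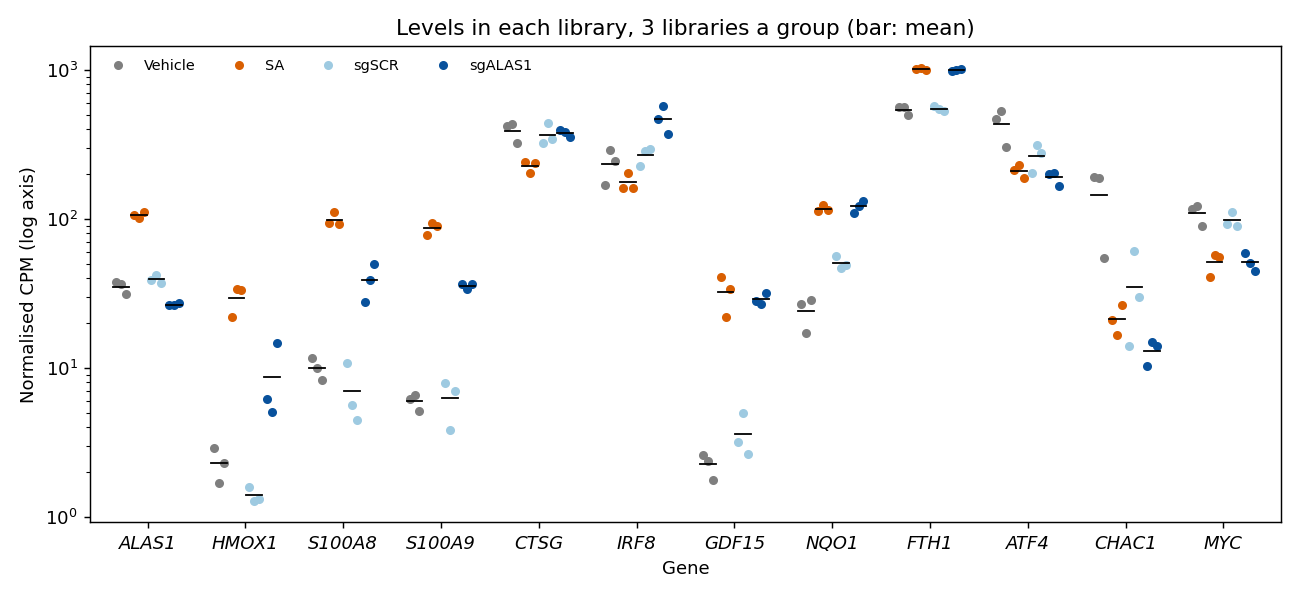
Normalised CPM (log axis) of 12 genes in each of the 12 libraries, 3 per group, with a bar at the group mean; grey is vehicle, orange SA, light blue sgSCR and dark blue sgALAS1. ALAS1, HMOX1, S100A8 and S100A9 separate the orange from the dark blue points, while NQO1, FTH1, ATF4 and MYC place them together.

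Of 40 tested stress genes downstream of ATF4, 1 was called higher in SA and 1 lower, against 2.26% and 1.68% of all tested genes. For 16 of the 40 the interval lay within 1.5-fold, as it did for 34.8% of all tested genes. ATF4 itself, the transcription factor of the integrated stress response, stood at 212, 228 and 189 CPM in SA and 200, 204 and 166 in sgALAS1, a difference of 0.14 (interval -0.18 to 0.47). Its controls stood further apart, with a gap of 0.71 (adjusted p = 0.011; called no longer without vehicle replicate 2 or sgSCR replicate 1, adjusted p up to 0.154). Over the 40 tested genes of the list the median direct difference was -0.0375, and the median control gap was 0.567, with 10 members higher in vehicle than in sgSCR, as were 0.962% of all tested genes.

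ASNS, the asparagine synthetase, was 42.5, 45.2 and 38.1 CPM in SA and 44.3, 41.1 and 40.3 in sgALAS1 (difference -0.0027, interval -0.58 to 0.58). Its vehicle libraries ranged widely, 126, 202 and 49.7 CPM, with a control gap of 0.73. CHAC1, which degrades glutathione, had the larger gap, 2.03 (adjusted p = 0.00063), and a direct difference of 0.72 that was not called (adjusted p = 0.34). DDIT3, which encodes CHOP, differed by -0.07 (interval -0.43 to 0.29, control gap 0.40). GDF15, a secreted stress cytokine, stood at 40.99, 21.9 and 33.7 CPM in SA and 28.2, 26.7 and 31.7 in sgALAS1, against 2.62, 2.37 and 1.77 in vehicle and 3.19, 4.98 and 2.65 in sgSCR; its difference was 0.16, with an interval of -0.30 to 0.62 that is too wide to bound it within 1.5-fold (control gap -0.67).

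In the ATF4 list 2 members were called. ATF5, a paralog of ATF4, was higher in SA at 48.6, 43.6 and 40.05 CPM against 20.4, 24.4 and 25.9, a difference of 0.91 ± 0.17 (adjusted p = 0.00098, control gap 0.46). KLHL24 was lower in SA (difference -0.98, adjusted p = 0.023, control gap -0.22), a call lost without SA replicate 3 or sgALAS1 replicate 2 (adjusted p up to 0.156). None of the 20 cytosolic tRNA synthetases, many of which are ATF4 targets, was called by edgeR, DESeq2 or limma voom, and 2 had an unadjusted p under 0.05. Of all tested genes edgeR called 3.94%.

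Genes of the mature monocyte and granulocyte, where called, were higher in SA. Of 34 tested members of the list 9 were called, all higher in SA, where 2.26% of all tested genes were, and the list median was 0.252. Its control gap median was 0.329, with 6 members higher in vehicle (0.962% of all tested genes), so the direct difference stood beside a control gap of like direction. Beyond the gap 1 of the 34 was called higher, as were 0.759% of all tested genes, and the list median was -0.0759. S100A9, which forms calprotectin with S100A8, stood at 77.5, 94.3 and 89.01 CPM in SA and 36.4, 33.8 and 36.4 in sgALAS1, with 6.21, 6.6 and 5.13 in vehicle and 7.97, 3.86 and 6.94 in sgSCR. Its difference was 1.29 ± 0.17 (adjusted p = 1.0e-05) with a control gap of -0.044, and the difference beyond the gap was 1.33 (adjusted p = 0.013).

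S100A8 was 93.3, 111 and 92.4 CPM in SA and 27.6, 39.1 and 49.4 in sgALAS1. Its difference of 1.36 ± 0.20 (adjusted p = 4.9e-05) came with a control gap of 0.56 (adjusted p = 0.38). Both calprotectin chains lay above their controls in both states, and the SA level was the higher.

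LST1, a leukocyte membrane protein, was 106, 116 and 114 CPM in SA and 50.9, 45.97 and 51.6 in sgALAS1, a difference of 1.18 ± 0.13 (adjusted p = 2.9e-07). The controls showed nearly the same step, 157, 146 and 140.3 CPM in vehicle against 77.3, 64.1 and 83.5 in sgSCR, a gap of 0.98 ± 0.12 (adjusted p = 1.5e-05). CYBB, the heme-binding NADPH oxidase subunit, repeated this pattern: 213, 200.1 and 214 against 121, 117 and 157 CPM, a difference of 0.67 (adjusted p = 0.0018) and a gap of 0.89 (adjusted p = 0.0002). For neither was the difference beyond the gap called (LST1 0.20, CYBB -0.22). LYZ, lysozyme, differed by 0.50 with a gap of 0.73 and lost its call without SA replicate 2 or sgALAS1 replicate 1 (adjusted p up to 0.0794). VCAN, the proteoglycan versican, differed by 0.45 with a gap of 0.98 and lost its call without any 1 of the 3 SA libraries or without sgALAS1 replicate 1 or 2 (adjusted p up to 0.146).

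TYROBP, a signalling adaptor of myeloid receptors, was 38.1, 29.8 and 36.5 CPM in SA and 17.1, 18.5 and 21.5 in sgALAS1, a difference of 0.88 (adjusted p = 0.0013, control gap 0.42). It ran against the calprotectin genes in its levels, since vehicle held 76.1, 61.9 and 61.8 CPM and sgSCR 50.8, 52.9 and 45.8, above both heme-targeted states. The last 2 calls were low in level: FCN1, a ficolin, at 5.38 CPM in SA and 0.363 in sgALAS1, and ITGAM, which encodes CD11b, at 8.55 and 2.31 CPM (control gaps -1.96 and 1.21, neither called). FCN1 lost its call without any 1 of the 3 SA libraries or sgALAS1 replicate 1 or 3 (adjusted p up to 0.119) and in DESeq2 (adjusted p = 0.114), and ITGAM without SA replicate 1 or 3 or sgALAS1 replicate 2 or 3 (adjusted p up to 0.137).

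**Figure D3:**
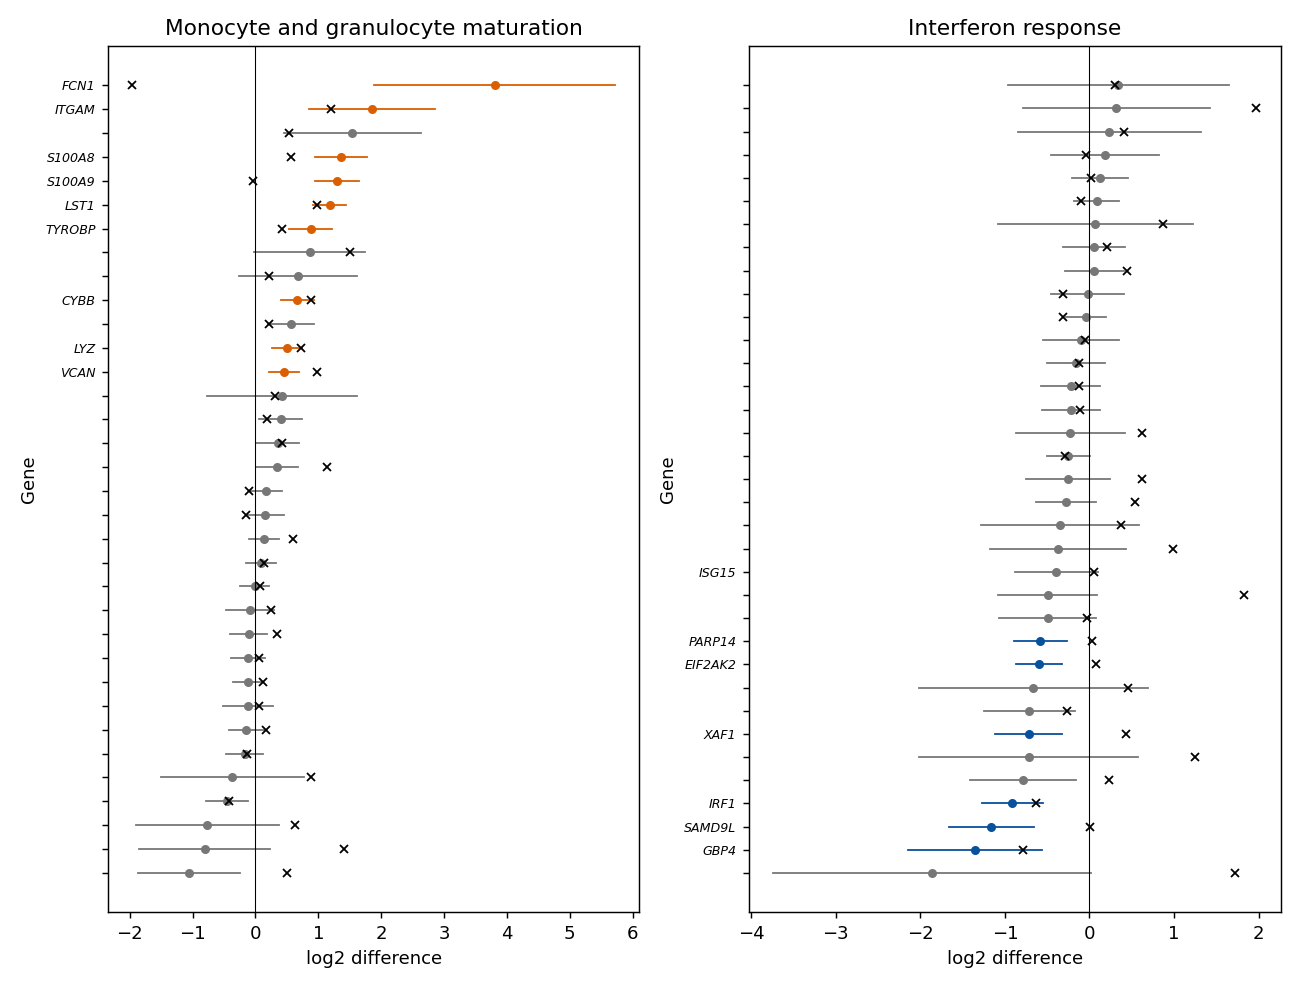
Each row is 1 tested member of the maturation list (left, 34 genes) or of the interferon list (right, 35 genes), with labels for genes described in the text. Dots and bars give the direct log2 difference, SA minus sgALAS1, with its 95% interval, in orange where SA was called higher, blue where sgALAS1 was called higher and grey where not called; crosses give the control gap. The 9 calls on the left are all orange and the 6 on the right all blue.

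Proteases of the primary granule, made at the promyelocyte stage, divided. PRSS57, also known as NSP4, was 34.4, 36.01 and 32.8 CPM in SA and 0, 0.363 and 0 in sgALAS1, where the 3 libraries together held 2 reads (control gap -0.25). CTSG, cathepsin G, went the other way, 239.6, 202 and 239 CPM in SA against 394, 382 and 357 in sgALAS1, a difference of -0.74 ± 0.13 (adjusted p = 0.00046, control gap 0.093). AZU1, azurocidin, was also lower in SA (-0.75, control gap -0.57), a call lost without SA replicate 1 or 2 or sgALAS1 replicate 1 or 3 (adjusted p up to 0.0832). MPO, the heme peroxidase of the same granule, stayed under 5 CPM in every library and was not called (-1.13, adjusted p = 0.23, control gap 0.11).

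IRF8, a transcription factor of monocyte and dendritic-cell commitment, was the factor of the progenitor list that was called higher in sgALAS1. It stood at 162, 204 and 162 CPM in SA and 467, 569 and 369.7 in sgALAS1, with 168, 288 and 246 in vehicle and 227, 284 and 295 in sgSCR. The difference was -1.42 ± 0.16 (adjusted p = 6.2e-07, control gap -0.20), and that beyond the gap -1.22 (adjusted p = 0.0023). FLT3, the receptor kinase of progenitors, went the other way at 17.9, 14.3 and 15.1 CPM in SA and 4.63, 5.63 and 4.88 in sgALAS1 (difference 1.64 ± 0.21, adjusted p = 7.2e-06, control gap 0.22). Both states lay below their controls for FLT3, which held 44, 41.3 and 48.8 CPM in vehicle and 41.4, 38.9 and 34.9 in sgSCR.

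Interferon-response genes, where called, were higher in sgALAS1. Of 38 tested members 7 were called and all 7 were higher in sgALAS1, where 1.68% of all tested genes were. For 14 members every SA library lay below every sgALAS1 library and for none above, against 10.6% and 11.4% of all genes. The list median was -0.311, with a median control gap of 0.0651. The lists were chosen with earlier results of these libraries known, so these counts are a description.

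The promoters of 3 genes are printed to show what the called and uncalled members carry within 250 bases upstream of the start. The sequences are RefSeq's for GRCh38.p14, read 5′ to 3′ on the gene's strand, with capitals for the core of the interferon-stimulated response element, searched as a pair of GAAA blocks with any 2 bases between them, and for TTCNNNGAA, the gamma-activated site. IRF1, at chr5:132490774-132491023 on the minus strand, has a gamma-activated site 124 bases upstream. PARP14, at chr3:122680589-122680838 on the plus strand, has both, 29 and 40 bases upstream. ISG15, at chr1:1013247-1013496 on the plus strand, has 2 overlapping copies of the response element, 113 and 107 bases upstream.
IRF1: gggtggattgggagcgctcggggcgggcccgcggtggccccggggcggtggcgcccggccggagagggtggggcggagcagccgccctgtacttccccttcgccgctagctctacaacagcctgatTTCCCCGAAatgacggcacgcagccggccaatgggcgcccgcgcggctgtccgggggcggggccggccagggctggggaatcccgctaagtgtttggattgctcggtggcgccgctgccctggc
PARP14: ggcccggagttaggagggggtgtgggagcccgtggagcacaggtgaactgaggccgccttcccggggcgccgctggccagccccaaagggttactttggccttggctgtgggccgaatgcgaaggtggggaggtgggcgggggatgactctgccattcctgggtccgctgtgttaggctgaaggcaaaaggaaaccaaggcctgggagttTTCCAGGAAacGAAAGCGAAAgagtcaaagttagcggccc
ISG15: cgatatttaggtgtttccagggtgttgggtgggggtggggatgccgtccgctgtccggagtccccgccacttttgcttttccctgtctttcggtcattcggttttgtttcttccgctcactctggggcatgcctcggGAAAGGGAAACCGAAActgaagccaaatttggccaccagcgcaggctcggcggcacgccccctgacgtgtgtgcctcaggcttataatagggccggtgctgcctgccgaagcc

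The response element was found, on either strand, in 12 of the 28 list members with a promoter in the table (42.9%) and in 2.33% of the 9728 tested genes with one. The gamma-activated site was found in 7 of the 28 (25%) and in 5.71% of the tested genes. Among the 7 members higher in sgALAS1, 6 had a promoter in the table, of which 1 held the response element and 2 the gamma-activated site. Both motifs were chosen after the list's values had been seen, and a match is a stretch of letters, not a bound site.

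IRF1, an interferon-induced transcription factor, was 52.5, 33.6 and 36.8 CPM in SA and 71.2, 86.3 and 74.03 in sgALAS1, a difference of -0.91 ± 0.18 (adjusted p = 0.0018). Its control gap of -0.64 was not called (adjusted p = 0.064) but ran the same way, with 37.2, 48.7 and 34.9 CPM in vehicle and 58.2, 79.1 and 50.4 in sgSCR.

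SAMD9L, an interferon-induced antiviral factor, was 8.55, 10.9 and 8.43 CPM in SA and 19.4, 21.8 and 21.1 in sgALAS1, a difference of -1.16 ± 0.24 (adjusted p = 0.0041) over a control gap of 0.0071. EIF2AK2, the double-stranded-RNA kinase PKR, differed by -0.60 (adjusted p = 0.006, control gap 0.072; adjusted p = 0.0502 without SA replicate 1). PARP14, an ADP-ribosyltransferase, differed by -0.58 (control gap 0.034), a call lost without SA replicate 1 or 3 or sgALAS1 replicate 1 or 2 (adjusted p up to 0.156). XAF1 differed by -0.72 (control gap 0.43) and lost its call without SA replicate 2 or sgALAS1 replicate 3 (adjusted p up to 0.17).

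GBP4, a guanylate-binding protein, differed by -1.35 (control gap -0.79) and lost its call without SA replicate 2 or 3, sgSCR replicate 2 or any 1 of the 3 sgALAS1 libraries (adjusted p up to 0.206), and with only the SA and sgALAS1 libraries in the fit (adjusted p = 0.0512). ISG15, the ubiquitin-like modifier, was not called: 13.99, 18.5 and 19.3 CPM in SA against 23.1, 21.6 and 23.3 in sgALAS1, a difference of -0.39 (interval -0.88 to 0.10, control gap 0.058). The interval of ISG15 covers the differences of EIF2AK2, PARP14 and XAF1, so ISG15 is not shown to differ from these called genes. A link between the promoter motifs and the calls was not tested.

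The called inflammatory mediators were higher in SA. TNF was 51.1, 55.7 and 54.6 CPM in SA and 22.5, 23.8 and 25.9 in sgALAS1, a difference of 1.16 ± 0.16 (adjusted p = 3.0e-05). Vehicle held 83.2, 63.8 and 76.6 CPM and sgSCR 25.9, 18 and 27.4, a control gap of 1.65 ± 0.16 (adjusted p = 5.5e-07). The difference beyond the gap was -0.49 (adjusted p = 0.39). The chemokine CCL2 was 9.71, 12.1 and 7.296 CPM in SA and 2.16, 2.36 and 0.887 in sgALAS1 (difference 2.38 ± 0.50, adjusted p = 0.0042), with a control gap of 1.31 that was not called at levels under 3 CPM. These were the 2 calls among 18 tested NF-κB and chemokine genes, against 2.26% of all tested genes higher in SA. Of the 18, 4 were higher in vehicle than in sgSCR, against 0.962% of all. The lymphotoxin gene LTB, outside that list, showed both steps as well: 1.59 ± 0.27 between the states (adjusted p = 0.00032) and 1.34 ± 0.20 between the controls (adjusted p = 0.00022).

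PTGS2, the inducible cyclooxygenase and a hemoprotein, was 8.74, 8.36 and 13.6 CPM in SA and 2.01, 1.09 and 3.77 in sgALAS1, a difference of 2.19 ± 0.45 (adjusted p = 0.0032, control gap 0.75). CYP1B1, a cytochrome P450, stood at 24.9, 27.6 and 21.2 CPM in SA and 8.34, 5.63 and 8.64 in sgALAS1, against 48.4, 42.8 and 46.01 in vehicle and 49.4, 45.5 and 38.9 in sgSCR. It was below both controls in both states, further so in sgALAS1, with a difference of 1.70 ± 0.20 (adjusted p = 1.2e-06) over a control gap of 0.04. With CYBB these were the 3 calls among 21 tested hemoproteins, all higher in SA, as were 2.26% of all tested genes.

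Metallothioneins, the zinc- and copper-binding proteins, split by gene. MT1G was 104, 132 and 103 CPM in SA and 72.4, 78.7 and 62.5 in sgALAS1 (difference 0.66 ± 0.13, adjusted p = 0.002, control gap -0.16). MT1H was 7.77, 9.55 and 7.78 CPM in SA and under 1 CPM in each sgALAS1 library (difference 4.22 ± 0.47, adjusted p = 4.7e-07, control gap 0.0088). MT2A ran the other way, 249, 304 and 248 CPM in SA against 440.4, 511 and 379 in sgALAS1, a difference of -0.73 ± 0.15 (adjusted p = 0.0033, control gap 0.39). The MT1 genes are near-identical copies of one another, so reads may be shared between them. The other 7 tested members of the list were not called. Of all tested genes 2.26% were higher in SA and 1.68% lower.

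Cuproptosis, copper-dependent death through lipoylated mitochondrial proteins, is named in the series title, and none of the genes listed for it was called between the states. None of the 21 genes of protein lipoylation and cuproptosis, of the 16 copper-handling genes or of the 18 iron-handling genes was called by edgeR, DESeq2 or limma voom, and 1 gene in each list had an unadjusted p under 0.05. Of all tested genes edgeR called 3.94%, and at that share lists this short may hold no call. The interval lay within 1.5-fold for 10, 8 and 10 of their genes, against 34.8% of all. Every SA library lay below every sgALAS1 library for 4, 0 and 2, against 10.6% of all, and above for 0, 2 and 3, against 11.4%. FDX1, the ferredoxin needed for lipoylation, stood at 16.3, 21.7 and 27.1 CPM in SA and 23.1, 31.4 and 16.4 in sgALAS1 (difference -0.13, interval -0.60 to 0.34, control gap 0.07). LIAS, the lipoyl synthase, differed by 0.042 (interval -0.57 to 0.66, control gap -0.14). At their levels neither was bounded within 1.5-fold. DLAT, a lipoylated subunit of pyruvate dehydrogenase, was bounded at -0.16 (-0.51 to 0.19, control gap 0.10), and so was the copper importer SLC31A1 at -0.11 (-0.45 to 0.23, control gap 0.43). The copper exporter ATP7A was low and its libraries spread widely, with an interval of -1.81 to 0.26 around -0.78 (control gap 0.44). TFRC, the transferrin receptor, differed by 0.41 (adjusted p = 0.38) beside a control gap of 0.80.

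Respiratory-chain and citric-acid-cycle genes encoded in the nucleus were not called either. This covered 37 genes of complex I, 14 of complexes II and III, 32 of complex IV and its assembly, 18 of the ATP synthase and 25 of the cycle, in which edgeR, DESeq2 and limma voom each called 0. Unadjusted p-values under 0.05 numbered 5, 3, 3, 4 and 3 in these lists. Over all tested genes edgeR called 3.94%. The interval lay within 1.5-fold for 31, 13, 23, 18 and 20 of their genes in the same order, against 34.8% of all tested genes. Every SA library lay above every sgALAS1 library for 6, 1, 3, 1 and 0 genes, against 11.4% of all. Every SA library lay below for 2, 2, 1, 4 and 8 genes, against 10.6% of all. The cycle genes had a median direct difference of -0.152 and a median control gap of -0.131. Of the 26 iron-sulphur assembly genes edgeR called 0 and DESeq2 and limma voom 1 each, with 5 at an unadjusted p under 0.05.

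Of 13 mitochondrially encoded messages, 2 were lower in SA, as were 1.68% of all tested genes, beside a control gap of the same direction. MT-ATP6, a subunit of the ATP synthase, was 7174, 8249 and 6663 CPM in SA and 13440, 14970 and 12990 in sgALAS1, a difference of -0.91 ± 0.11 (adjusted p = 1.3e-06). Its control gap was -0.78 ± 0.11 (adjusted p = 6.5e-05), and the vehicle libraries overlapped those of SA, as the sgSCR libraries did those of sgALAS1. MT-CYB, cytochrome b, differed by -0.54 (adjusted p = 0.00091) with a gap of -0.39. The call of that gap was lost without vehicle replicate 2 or 3, SA replicate 1 or 3, sgSCR replicate 2 or 3 or sgALAS1 replicate 1 (adjusted p up to 0.258). Over all 13 the direct median was -0.0332 and the median control gap -0.387, with 5 members lower in vehicle, as were 0.47% of all tested genes.

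DNA-replication genes, where called, were higher in SA. This held for 4 of 38, against 2.26% of all tested genes, with a list median of 0.21 and a median control gap of 0.166. RRM2, of ribonucleotide reductase, differed by 0.66 (adjusted p = 0.0028, control gap 0.53). The call of that gap was lost without vehicle replicate 2 or 3 or sgSCR replicate 1 or 2 (adjusted p up to 0.213). Further calls were TK1 (0.60, control gap 0.34), lost without SA replicate 1 (adjusted p = 0.0634), and E2F1 (0.81, control gap 0.38), lost without SA replicate 1 or sgALAS1 replicate 1 (adjusted p up to 0.106).

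MYC, the growth regulator, was 40.6, 57.3 and 55.8 CPM in SA and 58.8, 50.3 and 44.5 in sgALAS1, below 116, 121 and 89.4 in vehicle and 92.8, 111 and 89.3 in sgSCR. Its direct difference was -0.0038 (interval -0.32 to 0.31, control gap 0.16). CDKN1A, which encodes the cell-cycle inhibitor p21, differed by 0.24 (interval -0.027 to 0.51, control gap 0.11), and none of the 26 tested p53 targets was called by edgeR, DESeq2 or limma voom (2 at an unadjusted p under 0.05). Of all tested genes edgeR called 3.94%. CCND2, cyclin D2, was 4.86, 8.16 and 6.16 CPM in SA and 0, 1.27 and 0 in sgALAS1, a difference of 3.84 ± 0.50 (adjusted p = 8.6e-06, control gap 0.11). For BCL2, the apoptosis inhibitor, SA was lower (difference -0.67, control gap 0.26), a call lost without SA replicate 2 or 3 or sgALAS1 replicate 1 or 2 (adjusted p up to 0.0923).

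A few chaperone genes were higher in SA. HSPA1B, an inducible HSP70, was 17.1, 17.1 and 18.2 CPM in SA and 7.1, 7.09 and 5.54 in sgALAS1 (difference 1.40 ± 0.28, adjusted p = 0.0026, control gap -0.052); it has a near-identical copy, HSPA1A, that can share reads. Its cochaperone DNAJB1 differed by 0.70 (control gap 0.0088) and lost its call without sgALAS1 replicate 3 (adjusted p = 0.0577). In the endoplasmic reticulum the calcium-binding chaperone CALR differed by 0.72 (control gap -0.03), lost without sgALAS1 replicate 1 (adjusted p = 0.0778) and in DESeq2 (adjusted p = 0.063), and HSPA5, or BiP, by 0.53 (control gap 0.20), lost without SA replicate 1 or sgALAS1 replicate 1 or 2 (adjusted p up to 0.0913). These made 2 calls in each of the lists of 22 heat-shock and 26 unfolded-protein genes, against 2.26% of all tested genes higher in SA. CTSZ, a lysosomal carboxypeptidase, was 119, 113 and 135 CPM in SA and 61.7, 54.5 and 77.3 in sgALAS1, a difference of 0.92 ± 0.16 (adjusted p = 0.00059, control gap 0.064).

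Among 20 ERK-feedback and immediate-early genes 4 were higher in SA and none lower, against 2.26% and 1.68% of all tested genes: CCND2, described above, JUNB, SPRED1 and CCND3. JUNB, an AP-1 subunit, was 277, 241 and 281 CPM in SA and 185, 171 and 194 in sgALAS1 (difference 0.54 ± 0.12, adjusted p = 0.0049, control gap 0.083), and SPRED1, an inhibitor of RAS signalling, 64.3, 58.5 and 61.3 and 39.8, 29.98 and 28.8 (difference 0.89 ± 0.16, adjusted p = 0.001, control gap 0.54). CCND3, cyclin D3 (0.43, control gap 0.25), lost its call without any 1 of the 3 SA libraries or sgALAS1 replicate 1 or 2 (adjusted p up to 0.158). In antigen presentation, HLA-DRA, a class II chain, was 6.61, 7.76 and 3.57 CPM in SA and 0.926, 1.09 and 0 in sgALAS1 (difference 3.03 ± 0.61, adjusted p = 0.0028, control gap -0.59). CD74, the class II chaperone, was higher in SA by 0.56 (control gap -0.39; lost without SA replicate 1 or 3 or sgALAS1 replicate 1 or 2, adjusted p up to 0.198). HLA-E, a class I molecule, was lower in SA (difference -0.54, control gap -0.17; lost without any 1 of the 6 SA and sgALAS1 libraries or sgSCR replicate 3, adjusted p up to 0.163, and with a filter at a mean log2 CPM of 3, adjusted p = 0.0506).

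Single calls stood in other lists, beside 2.26% of all tested genes called higher in SA and 1.68% called lower. UTP20, of ribosome biogenesis, was 30.7, 45.2 and 44.1 CPM in SA and 20.1, 21.8 and 22.2 in sgALAS1 (difference 0.91 ± 0.18, adjusted p = 0.0025, control gap 0.10). The count of WDR74, in the same list of 34, was lower in SA (difference -0.67) beside a control gap of -1.14 (adjusted p = 9.0e-05). Its direct call was lost without SA replicate 1 or 2 or sgALAS1 replicate 1 or 3 (adjusted p up to 0.0941). RNU2-2P, also on chromosome 11, moved with WDR74 (difference -0.89, control gap -1.46). It held 103, 77.8 and 113 CPM in SA and 202, 125 and 217 in sgALAS1, beside 128, 111 and 142 and 222, 149 and 236 for WDR74. Whether the 2 genes share reads was not tested, so the step is not shown to be that of WDR74 RNA. CENPE, the mitotic kinesin, was lower in SA (difference -0.58, control gap 0.081; lost without SA replicate 1 or 3 or sgALAS1 replicate 3, adjusted p up to 0.0632), 1 of 30 mitotic genes. TPI1, the triose-phosphate isomerase and the call among 23 glycolytic genes, was higher by 0.39 (control gap 0.54; lost without any 1 of the 6 libraries, adjusted p up to 0.107). BIK, a pro-apoptotic BCL2 relative, was 2.72, 2.79 and 5.51 CPM in SA and 0.463, 0.909 and 1.11 in sgALAS1 (difference 2.19, control gap -0.67; lost without SA replicate 3 or sgALAS1 replicate 1, adjusted p up to 0.0705, in limma voom, adjusted p = 0.12, and with only the SA and sgALAS1 libraries in the fit, adjusted p = 0.0615). HOXA7 and RUNX1, both transcription factors of progenitors, were higher in SA by 2.20 and 0.56 (control gaps -0.72 and 0.33). HOXA7 lost its call without SA replicate 1 or 3 or any 1 sgALAS1 library (adjusted p up to 0.136) and in limma voom (adjusted p = 0.206). RUNX1 lost it without any 1 SA library or sgALAS1 replicate 2 or 3 (adjusted p up to 0.171), without a filter on low counts (adjusted p = 0.0561) and with only the SA and sgALAS1 libraries in the fit (adjusted p = 0.0505).

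In the sterol and hypoxia lists the called members were lower in SA, and the called control gaps were higher in vehicle. Of 29 sterol and fatty-acid genes 6 were higher in vehicle than in sgSCR, and 2 were called directly, both lower in SA, where 1.68% of all tested genes were: FDFT1, squalene synthase (-0.45, control gap 0.012), and INSIG1, the sterol-sensing regulator (-0.49, control gap 0.17). FDFT1 lost its call without any 1 of the 3 SA libraries or sgALAS1 replicate 1 or 2 (adjusted p up to 0.124), and INSIG1 without SA replicate 2 or 3 or sgALAS1 replicate 1 or 2 (adjusted p up to 0.189). HMGCS1, which makes HMG-CoA for sterols, was 50.3, 60.9 and 49.3 CPM in SA and 75.3, 81.96 and 61.6 in sgALAS1 (difference -0.45, adjusted p = 0.081) while its control gap ran the opposite way at 0.77 (adjusted p = 0.0023). Of 19 hypoxia genes 6 were higher in vehicle, against 0.962% of all tested genes, and 2 were lower in SA than in sgALAS1, against 1.68%. For 7 of the 19 every SA library lay below every sgALAS1 library, against 10.6% of all tested genes, and for 2 above, against 11.4%. The list medians were 0.364 for the control gap and -0.198 for the direct difference. ALDOC, the aldolase C gene of the glycolysis list, was 23.3, 21.3 and 20.1 CPM in SA and 33.96, 29.3 and 31.9 in sgALAS1 (difference -0.56, adjusted p = 0.1), with the controls in the opposite order (gap 0.99 ± 0.18, adjusted p = 0.0023).

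**Figure D4:**
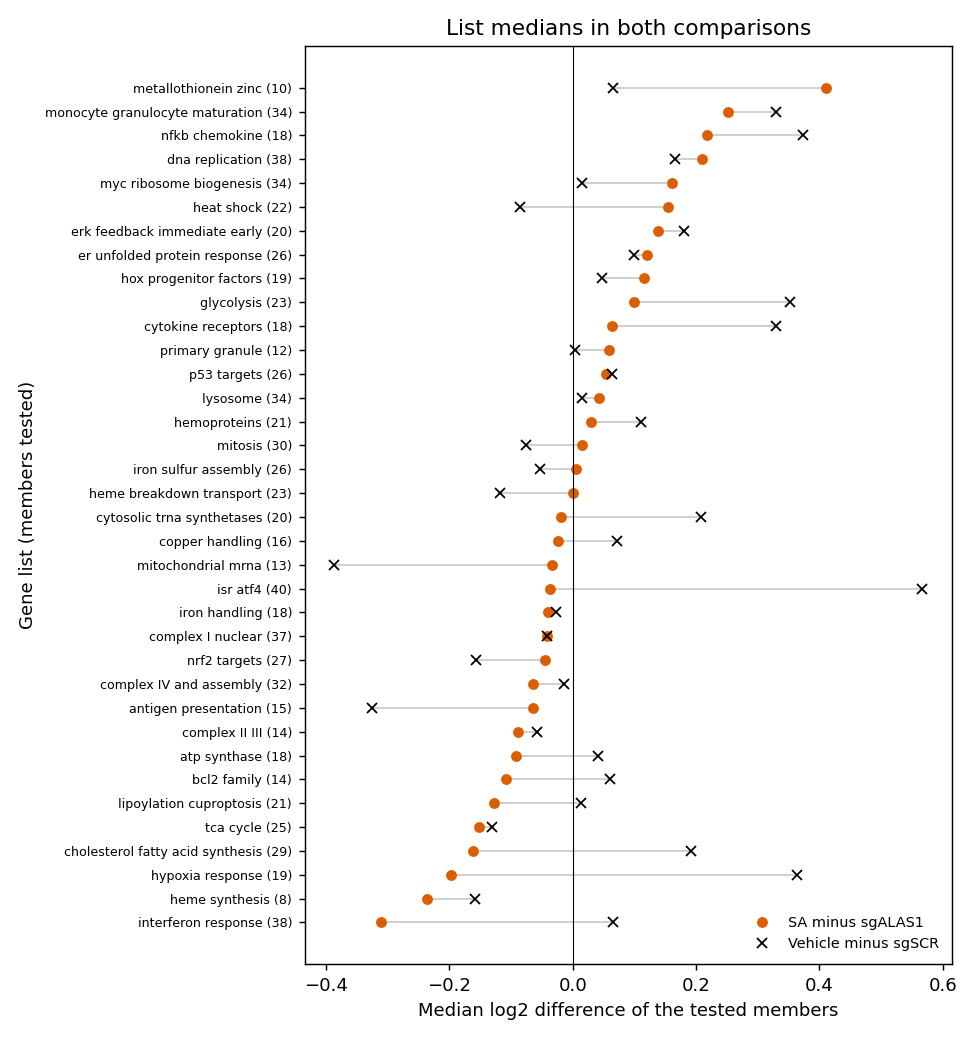
Median log2 difference of the tested members of each gene list, with the number tested in parentheses: orange dots are SA minus sgALAS1 and crosses are vehicle minus sgSCR. The ATF4 list has the highest cross, at 0.567, with its dot at -0.0375, and the interferon list has the lowest dot, at -0.311.

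The largest differences of all were genes read in SA and all but absent in sgALAS1. Among the 313 genes higher in SA, 66 (21.1%) had at most 3 reads over the 3 sgALAS1 libraries together and 45 had none. Among the 232 genes higher in sgALAS1 the corresponding counts were 4 and 1, the one being the small nucleolar RNA SNORD14C (control gap -2.90, not called). A gene with so few reads in 1 state passed the filter on its reads in other groups and could be called only toward the other state. The share of all tested genes with so few reads was not counted, so these counts are a description. Genes with identical or overlapping counts entered them separately. A fold against a group without reads is a lower bound, set here at 3 reads over the group. The apolipoprotein gene APOC2 held 14.8, 13.5 and 17.5 CPM in SA, at least 83.9-fold higher than sgALAS1, where no read was counted, with a control gap of -0.19. APOC2 had the same count in every library as APOC4 and APOC4-APOC2, annotated at the same place, and the 3 are 1 measurement. SNRPN, from the imprinted region of chromosome 15, held 6.02, 11.1 and 10.9 CPM in SA, at least 51.4-fold higher (control gap -0.23), and SNURF, which overlaps it, at least 51-fold. The transmembrane glycoprotein CD93 was at least 31.4-fold higher (control gap -0.21) and the succinate receptor SUCNR1 at least 27.1-fold higher (control gap 0.35).

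To describe such genes without using the SA libraries, they were chosen from the guide arm alone: a mean of 5 CPM or more in sgSCR and at most 3 reads over the sgALAS1 libraries. Unnamed and chromosome Y genes were left out and genes with identical counts entered once. This gave 40 genes on 17 chromosomes, by a rule set after the direct differences had been seen. All 40 were lower in SA than in vehicle, at a median of 23.7% of the vehicle level (quartiles 18.9% and 33.1%, range 3.46% to 73.6%). Of the 40, 37 stood under 50% of vehicle, as did 2.94% of the 10377 tested genes with at least 5 CPM in sgSCR, whose median was 98.7%. The medians of the SA libraries taken singly were 25%, 24.4% and 26%, and for 35 genes every SA library lay below every vehicle library. The share of all tested genes with that order was not counted. None was called in the control gap, where edgeR called 1.43% of all tested genes. The cut at 5 CPM in sgSCR bears on this count. It left out CD3D, which had no read in sgALAS1, a mean of 4.993 CPM in sgSCR and a called control gap of 1.43. Of the 40, 30 were called higher in SA than in sgALAS1, where the rule fixes the near-zero level, and the other 10 were not called. The plot of these 40 genes shows each of them.

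**Figure D5:**
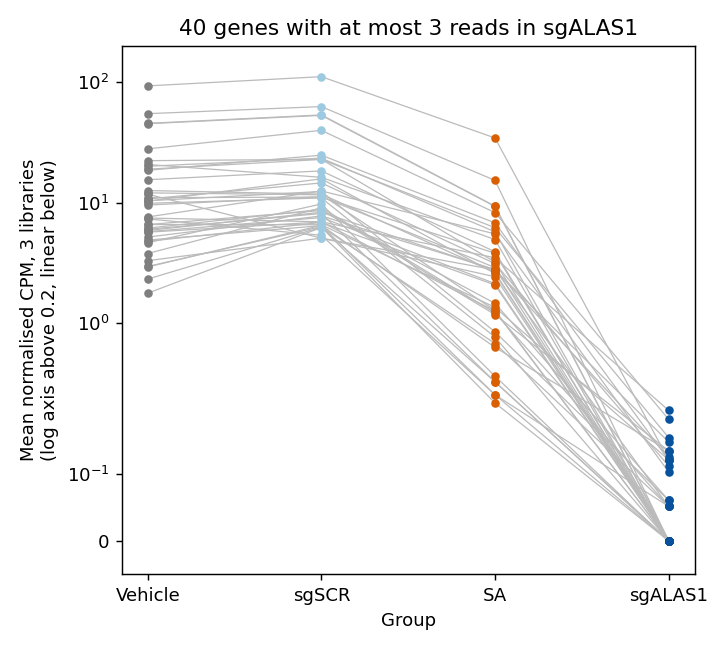
Mean normalised CPM over 3 libraries (log axis above 0.2, linear below) of the 40 genes with at least 5 CPM in sgSCR and at most 3 reads in sgALAS1; each line joins 1 gene across the 4 groups. All 40 stand lower in SA than in vehicle, at a median of 23.7% of it, and end near 0 in sgALAS1, which the choice of genes fixes.

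Some genes with this order kept a few reads in sgALAS1. SLC39A4, a zinc importer, was 10.9, 6.57 and 7.296 CPM in SA and 0, 0.545 and 0 in sgALAS1 (control gap -0.50). ENPP2, autotaxin, was 10.9, 11.5 and 8.92 and 0, 0.545 and 1.11 CPM (difference 4.35 ± 0.42, adjusted p = 4.1e-08, control gap 0.12). PDLIM1, a cytoskeletal adaptor, was 9.52, 11.9 and 17.02 and 1.54, 0.909 and 0 CPM (difference 3.81 ± 0.38, adjusted p = 7.2e-08, control gap -0.28). All 3 were higher in both controls than in either heme-targeted state. The lymphoid marker NKG7 belonged with them at 4.47, 7.36 and 4.86 CPM in SA and 0.154, 0.727 and 0.222 in sgALAS1 (difference 3.85 ± 0.53, adjusted p = 1.8e-05, control gap 0.023).

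On the other side, the largest differences in favour of sgALAS1 among genes at a mean log2 CPM of 3 or more were at genes read in both states. SCARNA9, a small Cajal-body RNA, was 53.8, 53.3 and 63.4 CPM in SA and 181, 175 and 178 in sgALAS1, a difference of -1.64 ± 0.13 (adjusted p = 7.0e-10). Part of that step was present in the controls, with 62.5, 57.7 and 49.4 CPM in vehicle, 124, 124 and 95.7 in sgSCR and a gap of -1.01 ± 0.13 (adjusted p = 2.4e-05). CA2, carbonic anhydrase II, was 77.3, 80.4 and 91.8 CPM in SA and 251, 306 and 211 in sgALAS1, a difference of -1.62 ± 0.15 (adjusted p = 2.6e-08, control gap -0.63). Its difference beyond the gap was -0.995 (adjusted p = 0.011). The call of the gap itself was lost without vehicle replicate 1 or 3 or sgSCR replicate 1 or 2 (adjusted p up to 0.278).

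The transcription factor ZEB1, known for repressing epithelial genes, was 6.61, 7.76 and 9.56 CPM in SA and 19.9, 20.4 and 30.4 in sgALAS1 (difference -1.54 ± 0.28, adjusted p = 0.001, control gap -0.24). SA lay near both controls and sgALAS1 above them. A second kind was low in SA alone: NUCB2, nucleobindin 2, was 152, 155 and 158 CPM in SA and 301, 307 and 295 in sgALAS1, with 279, 305 and 337 in vehicle and 341, 377 and 318 in sgSCR. Its difference was -0.96 ± 0.11 (adjusted p = 7.4e-07, control gap -0.17). The ATP-gated channel P2RX1 (-1.17, adjusted p = 0.0021, control gap 0.16) and the lysosome-associated LAMP5 (-0.90, adjusted p = 3.4e-05, control gap -0.17) were likewise lowest in SA.

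For 1 gene on each side the controls were called in the opposite direction. NKD2, an inhibitor of Wnt signalling, was 10.1 CPM in vehicle and 24.1 in sgSCR on average, but 2.62 in SA and 0.451 in sgALAS1. Its control gap of -1.25 and direct difference of 2.58 had opposite signs; the direct call was lost without SA replicate 3 or sgALAS1 replicate 1 (adjusted p up to 0.0786), in limma voom (adjusted p = 0.125) and with only the SA and sgALAS1 libraries in the fit (adjusted p = 0.0833), and that of the gap without vehicle replicate 2 or 3 or sgSCR replicate 1 or 2 (adjusted p up to 0.289). The zinc-finger gene ZNF117 had a gap of 0.82 and a direct difference of -0.76; the direct call was lost without SA replicate 2 or 3 or sgALAS1 replicate 1 or 2 (adjusted p up to 0.201), and that of the gap without vehicle replicate 2 or 3, any 1 sgSCR library or sgALAS1 replicate 1 (adjusted p up to 0.253) and in limma voom (adjusted p = 0.0634).

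Next to NQO1, 5 genes had the largest control gaps, over 2-fold, among genes bounded within 1.5-fold in the direct comparison. TIMP3, an inhibitor of metalloproteinases, was 172, 174 and 191 CPM in SA and 206, 192 and 203 in sgALAS1 (difference -0.16, interval -0.45 to 0.14), from 379, 407 and 308 in vehicle and 103, 177 and 169 in sgSCR (gap 1.28 ± 0.15, adjusted p = 3.2e-06). The immediate-early gene EGR1 was 39.4, 38.6 and 38.6 CPM in SA and 41.8, 31.8 and 41 in sgALAS1 (difference 0.025, interval -0.33 to 0.38), with a gap of 1.27 ± 0.18 (adjusted p = 0.00011). ADAMTS1, a secreted protease, did the same (difference 0.18, gap 1.07), as did the intramembrane protease SPPL2A (difference 0.00057, gap 1.21). PPFIA2, a liprin, had a difference of -0.091 and a gap of 1.12 whose call was lost without vehicle replicate 2 or sgSCR replicate 1 (adjusted p up to 0.146).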

How the data were processed

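Polyadenylated RNA of 12 OCI-AML3 libraries was sequenced from the 3′ end (QuantSeq), per the labels' protocols. The deposited file holds raw read counts per gene; the submitters' processing notes name bcl2fastq 2.17.1.14, cutadapt 1.14, HISAT2 2.0.4, featureCounts (Subread 2.0.0) and hg19, with no settings. QuantSeq counts give 1 read per transcript end, so no length scaling was made. Gene symbols were matched to identifiers from a current gene table (39538 of 57905) or GENCODE 29 (12800). In R 4.3.3, edgeR 4.0.16 (TMM, filterByExpr, glmQLFit on all 12 libraries without a replicate block, 8 residual degrees of freedom) gave the differences, with Benjamini-Hochberg adjustment and 95% intervals; the biological coefficient of variation was 16.4%. The fit was tested on simulated data. Alternatives were other normalizations and filters, DESeq2 1.42.0, limma 3.58.1 voom, a replicate block, a fold threshold and leaving out each library. Genes were named by rule: the largest differences among genes at a mean log2 CPM of 3 or more, those beyond or against the control gap, those alike despite it, the smallest p in each list, and fixed heme, stress and copper genes. Further list members, the genes absent in sgALAS1, LTB and the interferon motifs were chosen after their values were seen. The comparison, the rule and all lists were chosen with earlier results of these data known. Genes of chromosome Y were not named, and some list members are not reported here. No source used here states whether counting used strand, so reads of overlapping genes cannot be told apart.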

Additional observations from a re-analysis of the deposited data

Results flagged for a closer look

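The groups hold 3 libraries each, too few for a test of single outlying libraries. For 37 named genes the effect of SA over vehicle and that of the ALAS1 guide over the scrambled guide differed by the test of the difference itself, (SA minus vehicle) minus (sgALAS1 minus sgSCR), at an adjusted p under 0.05 in edgeR's quasi-likelihood test over all tested genes. Of all 13832 tested genes 164 (1.19%) passed it. Some of the 37 were named because they passed this test or because their control gap and direct difference disagreed. Their number is therefore no result of its own.
The log2 difference of effects was positive for ALAS1 2.16, BIK 2.86, CCND2 3.73, CD74 0.95, CYP1B1 1.66, ENPP2 4.24, FLT3 1.42, HLA-DRA 3.62, HOXA7 2.92, MT1G 0.82, MT1H 4.21, NKD2 3.83, NKG7 3.83, NQO1 1.01, PDLIM1 4.09, PRSS57 8.16, S100A9 1.33 and SLC39A4 5.84. It was also positive for genes without a read in sgALAS1, where a fitted value depends on the prior count and is no bound: APOC2 9.65, CD93 8.27, SNRPN 8.98, SNURF 8.97 and SUCNR1 7.48. It was negative for BCL2 -0.93, CA2 -0.995, CTSG -0.83, IRF8 -1.22, LAMP5 -0.73, MT2A -1.12, NUCB2 -0.79, P2RX1 -1.33, XAF1 -1.15 and ZNF117 -1.58. Adjusted p-values ran from 5.5e-11 (PRSS57) to 0.031 (LAMP5).

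For 5 of these genes the difference of effects was called while SA and sgALAS1 were not called apart: NQO1, given above, ALDOC -1.54, EGR1 -1.25, HMGCS1 -1.22 and TIMP3 -1.44.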

How the results depend on the processing

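The directions of the called genes named here turned under none of the settings tried. Without a filter on low counts, 170 genes were higher and 107 lower beyond the control gap, 29 were lower with the controls moving the same way, and 40 were lower and beyond the gap. A filter at a mean log2 CPM of 3 left 54 genes higher beyond the gap, 42 of them higher directly. Tested against a 1.5-fold change rather than 0, counts higher and lower were 84 and 11 directly, 9 and 4 between controls, and 63 and 5 beyond the gap. DESeq2 called 106 genes lower in vehicle than in sgSCR. With a replicate block, 25 genes were lower with the controls moving the same way and 40 lower and beyond the gap. The other counts stayed within 1.5 times, the direct ones with the block at 373 higher and 286 lower. Same-numbered SA and sgALAS1 libraries correlated in their deviations at 0.00236, 0.111 and 0.0576, and same-numbered vehicle and sgSCR libraries at 0.089, 0.0261 and 0.0917. Differently numbered libraries of these groups ran from -0.134 to 0.0515. SA replicate 1 correlated best with sgALAS1 replicate 3 (0.0328), and vehicle replicate 2 with sgSCR replicate 3 (0.0515). Correlations this small do not settle whether the numbers pair the samples. Leaving out 1 library at a time gave 176 to 386 genes higher and 102 to 260 lower directly, 56 to 159 and 28 to 117 between controls, 83 to 231 and 25 to 109 beyond the gap, 67 to 136 higher and 10 to 43 lower both directly and beyond the gap, 14 to 30 higher and 10 to 19 lower with the controls moving the same way, and 3844 to 4946 alike within 1.5-fold. In simulated counts of this depth and spread, 32.1% of 1.5-fold, 58.8% of 2-fold and 89% of 4-fold changes were recovered, so smaller differences are mostly not detectable. Of the 132 simulated calls 9 (6.82%) were false. The simulation changed 197 of 13525 genes, in SA alone, fewer than the 545 called directly here. Recovery depends on that number, so these shares are approximate.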

Other observations

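Over all tested genes 2.26% were higher in SA and 1.68% higher in sgALAS1, and some chromosomes differed from these shares. Of 1009 tested genes on chromosome 19, 49 (4.86%) were higher in SA and 6 (0.595%) higher in sgALAS1, with a median direct difference of 0.083 and a median control gap of -0.0698. APOC2 and PRSS57 are among them. Chromosome 4 showed the other order, with 2 of 432 genes (0.463%) higher in SA and 12 (2.78%) higher in sgALAS1. On chromosome 14, 1 of 462 genes (0.216%) was higher in SA and 6 (1.3%) higher in sgALAS1, both under the shares of all tested genes. Departures were also seen on chromosomes 20 (3.9% and 1.39%) and 21 (3.68% and 0%) and among the 37 mitochondrial genes (8.11% and 5.41%). No test of position was made.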
